A study of Mus musculus with 8 samples.

Results

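The 9 genes described here, Nqo1, Gclc, Gclm, Txnrd1, Srxn1, Hmox1, Cbr1, Cbr3 and Ephx1, are antioxidant and detoxification genes known as targets of the transcription factor NRF2. They were taken by symbol, with every probe set that the platform's annotation assigns to them, which gave 16 probe sets for 9 of the 18193 genes on the array. The data were 8 Affymetrix arrays of mouse liver, 1 for each of 2 arms on days 0, 1, 2 and 5 after TCPOBOP. Both arms carried the Metff/ff:ERCre+/+ background, a floxed Met gene with a Cre recombinase that tamoxifen switches on. The MET KO + EGFRi mice had received 5 daily injections of tamoxifen (100 µl at 10 mg/ml in corn oil), which switches on deletion of Met, in the whole animal per the labels, and ate a diet with canertinib, an EGFR inhibitor, meant to deliver 80 mg/kg per day. The control mice were littermates that received corn oil only. TCPOBOP was given by gavage, 1 dose of 3 mg/kg, no sooner than 5 days after tamoxifen ended, and the diet was started 1 day ahead of it. The labels do not give the age or sex of the mice, the promoter of the Cre, the number of livers in a pool, or whether day 0 mice had been dosed or had eaten the diet. The arms differ in tamoxifen, Met and canertinib at once, and the shares of these 3 in any difference below cannot be told apart.

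NRF2, encoded by Nfe2l2, is held in the cytoplasm and sent for degradation by KEAP1. Electrophiles and oxidants disable KEAP1, and NRF2 then enters the nucleus, pairs with a small Maf protein and binds antioxidant response elements, where BACH1 competes with it. TCPOBOP is an agonist of the constitutive androstane receptor CAR (Nr1i3), a main regulator of drug metabolism genes in mouse hepatocytes, and it makes hepatocytes divide without injury. Several enzymes of drug metabolism, Ephx1 among them, are known to respond to both factors.

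The promoters are shown because they hold, or do not hold, the letters of these elements close to the transcription start. RefSeq (GRCm38.p6) gave windows from 250 bases before to 50 bases after a start for 7 of the 9 genes, with 3 starts for Txnrd1. The letters searched on both strands were TGACNNNGC, the core of the antioxidant response element, TGANTCAGC, the form bound by NRF2 with small Maf, and TGACTCA, the AP-1 element, which can lie within TGANTCAGC. TGACNNNGC was found for 3 of the 7 genes, in 3 of their 9 windows, and stands in 12.4% of all 32851 promoter windows. TGANTCAGC was found for Srxn1 alone among the 7 and stands in 1.19% of all windows. This motif was chosen after the Srxn1 sequence was seen, so its match there is no test. TGACTCA was likewise found for Srxn1 alone and stands in 5.2% of all windows. In the sequences that follow, written 5′ to 3′ along the gene, capitals mark TGACNNNGC or TGANTCAGC, and a match on the other strand appears as its reverse complement. Srxn1 holds the TGANTCAGC match 45 bases before its start and a TGACNNNGC match, on the other strand, 29 bases after it. Cbr1, Ephx1, Nqo1 and Cbr3 hold neither in these windows.
Srxn1 promoter, chr2:152105274-152105573 (+ strand): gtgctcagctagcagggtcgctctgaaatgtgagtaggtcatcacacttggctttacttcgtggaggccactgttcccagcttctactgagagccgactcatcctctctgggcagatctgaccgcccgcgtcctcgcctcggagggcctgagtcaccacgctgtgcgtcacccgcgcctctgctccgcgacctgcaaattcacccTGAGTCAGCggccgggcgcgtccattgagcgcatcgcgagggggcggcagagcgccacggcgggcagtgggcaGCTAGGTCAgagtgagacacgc
Cbr1 promoter, chr16:93607587-93607886 (+ strand): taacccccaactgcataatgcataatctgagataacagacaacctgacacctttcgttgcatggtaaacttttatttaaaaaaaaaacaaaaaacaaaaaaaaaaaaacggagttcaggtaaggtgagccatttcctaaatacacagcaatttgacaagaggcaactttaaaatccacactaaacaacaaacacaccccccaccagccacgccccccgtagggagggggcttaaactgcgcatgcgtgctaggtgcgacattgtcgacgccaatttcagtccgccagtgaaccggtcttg
Ephx1 promoter, chr1:181017520-181017819 (- strand): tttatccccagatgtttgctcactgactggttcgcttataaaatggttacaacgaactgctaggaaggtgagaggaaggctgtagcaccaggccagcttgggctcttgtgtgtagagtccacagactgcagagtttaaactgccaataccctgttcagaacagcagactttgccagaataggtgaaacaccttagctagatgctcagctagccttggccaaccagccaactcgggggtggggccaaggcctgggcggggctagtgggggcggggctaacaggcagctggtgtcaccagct
Gclm, site at chr3:122245423-122245431, 134 bases before the start: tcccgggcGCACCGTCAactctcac
Txnrd1, site at chr10:82859114-82859122, 92 bases before the middle of its 3 starts: ggatttttGCTTTGTCAttctgaca

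Each array carried RNA pooled from the livers of 1 group, so a group had 1 array and no replicate, and precision is limited by there being 8 arrays. Signals are on a linear scale with no fixed unit, and a level is compared only within a probe set. The median signal was 235 to 241 in the MET KO + EGFRi arrays and 224 to 251 in the control arrays. The actin 3′/5′ signal ratio, a sign of RNA degradation, was 1.57 to 2.36 in MET KO + EGFRi arrays, with the top value on day 5, and 1.58 to 1.9 in control arrays. Among the 6 hepatocyte markers, Alb had at least 37254 and Ttr at least 41523 in every array. Cyp2b10, the best known CAR target, had 356, 37324, 32027 and 48292 in the MET KO + EGFRi series of days 0, 1, 2 and 5, against 444, 38898, 33939 and 45578 in control livers. Both day 0 arrays were thus far below the later ones. Met itself did not pass the test between the arms as labelled on either of its 2 probe sets. Its brighter probe set had 1502, 1049, 2034 and 1358 in MET KO + EGFRi livers, against 1444, 926, 1336 and 1149 in control livers, higher on 4 of 4 days (log2 difference 0.26, adjusted p = 0.551). The other had 639.5, 532, 650 and 389 in MET KO + EGFRi livers, against 786, 561, 359 and 531 in control livers, and it was lower on all days but day 2 (mean difference on the log2 scale 0.0042, adjusted p = 0.998). Whether these probes lie in the deleted part of Met is not given in the sources used here, so they do not check the labels, and every arm difference below goes by the arms as labelled. Fewer cells of a type and less RNA per cell cannot be told apart in whole liver RNA.

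Of the 9 genes, 2 passed the test after TCPOBOP, Cbr1 and Ephx1, and both were above day 0 in both arms. Ephx1, the microsomal epoxide hydrolase that opens reactive epoxides, had 7324, 16206, 19814 and 19760 in the MET KO + EGFRi series, against 11284, 24417, 25107 and 25612 in control livers. Both day 0 arrays were below all 6 later arrays. The signal after TCPOBOP was 2.21 to 2.71 times day 0 in MET KO + EGFRi livers and 2.16 to 2.27 times day 0 in control livers. Cbr1, a carbonyl reductase of the cytosol, had 2362, 5986, 7922 and 6624 in MET KO + EGFRi livers, against 4105, 8821, 7218 and 10832 in control livers. Its day 0 arrays too lay below the 6 others, with a rise of 2.53 to 3.35 times in MET KO + EGFRi livers and 1.76 to 2.64 times in control livers. Gclm, which did not pass the test, also had both day 0 arrays below all 6 later arrays on its brightest probe set. This order was found in 5.8% of the 12112 genes above the filter.

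In limma's fit of arm and day, the mean of days 1, 2 and 5 minus day 0 was 1.24 (standard error 0.15, limma adjusted p = 0.0192) for Ephx1 on the log2 scale. For Cbr1 it was 1.29 (standard error 0.20, limma adjusted p = 0.0464). These were 2 of the 8 members above the filter on weak signals, while 0.421% of the 12112 genes were called higher after TCPOBOP and 0.487% in either direction. The median change was 0.37 over the 8 members, of which 7 were above 0, and -0.019 over all genes. The 6 hepatocyte markers had a median change of 0.33, with 5 of 6 above 0 and 0 called (Alb 0.62, adjusted p = 0.34). They summed to 189202, 220435, 268210 and 268470 in MET KO + EGFRi livers over the days in order, against 172332, 216369, 170181 and 278200 in control livers, and their part in the members' changes was not tested. Without either day 2 array both calls held, with adjusted p of 0.0375 and 0.0232 for Cbr1 and 0.0297 and 0.0281 for Ephx1. Without any 1 of the 6 arrays of days 0, 1 and 5 both were lost, with adjusted p from 0.104 to 0.333 for Cbr1 and from 0.0544 to 0.209 for Ephx1. In a fit over all 22519 probe sets above the filter, Ephx1 had an adjusted p of 0.0233 and Cbr1 of 0.0601, where 0.244% of probe sets were called higher.

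**Figure D1:**
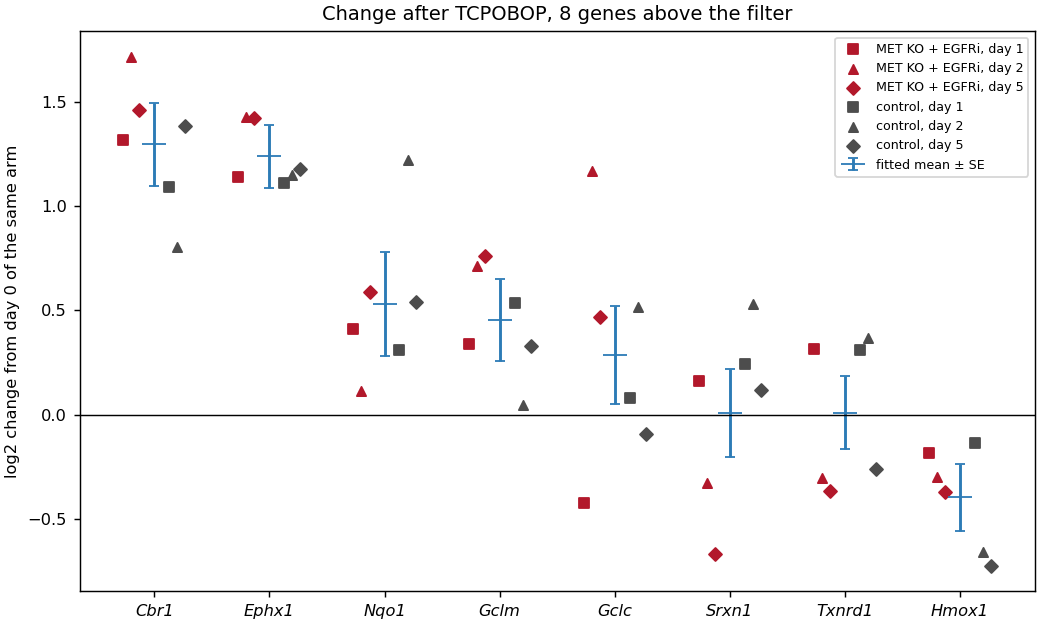
Log2 change from day 0 of the same arm (vertical axis) for the 8 genes above the filter, with 1 point per array of days 1, 2 and 5 and the fitted mean ± standard error over both arms. All 6 points of each of Cbr1, Ephx1, Nqo1 and Gclm lie above 0, and all 6 of Hmox1 lie below it.

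No other member passed the test after TCPOBOP. On their brightest probe sets, Nqo1 and Gclm were above day 0 of the same arm on every later day in both arms. The share of all genes with this pattern is not given here. Nqo1, which reduces quinones in a single step and so keeps them from cycling, had a fitted change of 0.53 (standard error 0.25, limma adjusted p = 0.543). The glutamate-cysteine ligase subunits Gclm and Gclc had 0.45 (adjusted p = 0.491) and 0.29 (adjusted p = 0.761). Without 1 array the change was 0.34 to 0.72 for Nqo1, 0.30 to 0.60 for Gclm and 0.13 to 0.44 for Gclc. The weaker Gclm probe set, 1439050_at, had a change of 0.034 (adjusted p = 0.974 in the fit over probe sets). It was below day 0 on day 1 in MET KO + EGFRi livers and on day 5 in control livers. The size of the Gclm change thus depended on the probe set. Hmox1 was the only member above the filter with a negative change, -0.40 (adjusted p = 0.459). Txnrd1 and Srxn1 had 0.0090 (adjusted p = 0.993) and 0.0091 (adjusted p = 0.994) on the probe sets read for the gene, and these values near 0 took either sign when an array was left out. The difference in response between the arms, tested as an interaction, was called for 0 of the 8 members by limma, and 0 had an unadjusted p under 0.05. Over all genes 0 were called (0.0%) and 4.48% had an unadjusted p under 0.05. For Cbr1 and Ephx1 that difference was 0.40 and 0.18, with standard errors of 0.40 and 0.33, and over the fits without 1 array it ran from 0.15 to 0.57 for Cbr1 and from 0.14 to 0.26 for Ephx1. A difference of that size could not be resolved.

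Between the arms as labelled, none of the 8 members above the filter passed limma's test over the 4 days, while 0.578% of all genes did. Of the 8, 4 had a higher and 4 a lower mean in MET KO + EGFRi livers, with a median log2 difference of 0.029 against 0.0021 over all genes. With no adjustment, 5 of the 8 had a p under 0.05, 2 of them higher (Hmox1 and Txnrd1, 6.12% of all genes) and 3 lower (Gclc, Cbr1 and Ephx1, 5.99% of all genes), where 12.1% of all genes had such a p in either direction. The members thus did not move one way, and each is described in turn.

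**Figure D2:**
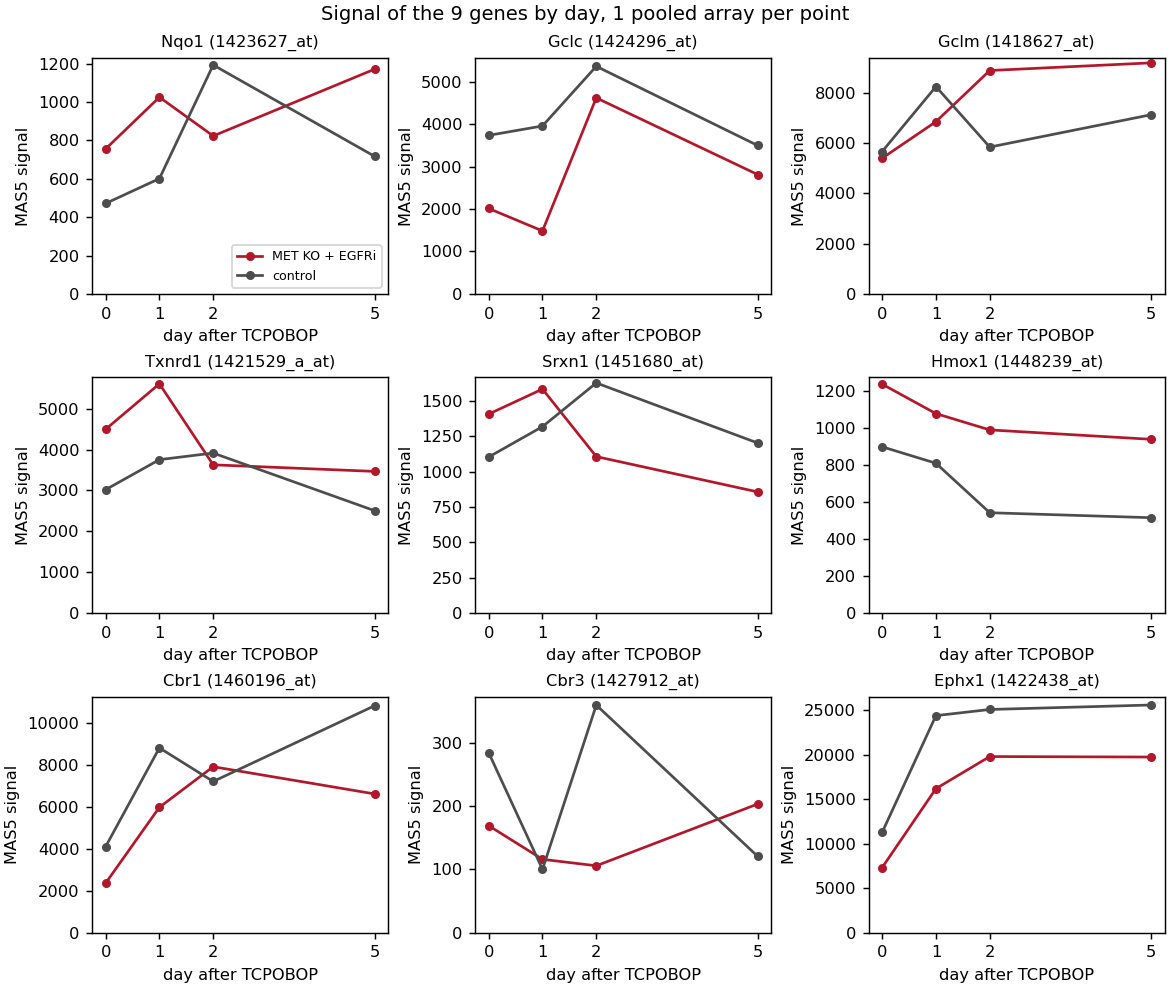
Signal (vertical axis, linear MAS5 units, from 0) by day after TCPOBOP (horizontal axis) for the 9 genes, 1 line per arm and 1 pooled array per point, on the probe set with the highest mean. The MET KO + EGFRi line lies above control throughout for Hmox1 and below it throughout for Gclc and Ephx1, and the lines cross for the other 6.

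Hmox1 encodes heme oxygenase 1, which breaks heme down to biliverdin, iron and carbon monoxide, and it is expressed in macrophages as well as in stressed hepatocytes. It had 1236, 1077, 989 and 939 in MET KO + EGFRi livers over the days in order, against 898, 809.6, 543 and 516 in control livers. All 4 MET KO + EGFRi arrays were above all 4 control arrays, a separation in this direction that 3.5% of genes showed. The signal was 1.38, 1.33, 1.82 and 1.82 times control on the 4 days, and the mean log2 difference was 0.60 (standard error 0.14, limma adjusted p = 0.15). Without 1 array it was 0.53 to 0.67, with adjusted p from 0.269 to 0.426.

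Markers of Kupffer cells, the resident macrophages of the liver, also had higher means in MET KO + EGFRi livers. The mean difference was above 0 for all 12 markers listed, 8 of them were higher on 4 of 4 days, and 1, Cd5l, was called (log2 difference 0.95, adjusted p = 0.0468). Without 1 array Cd5l was called in 0 of 8 fits (adjusted p 0.0732 to 0.321). C1qa and Marco had 0.96 (adjusted p = 0.112) and 0.95 (adjusted p = 0.115). The 12 summed to 29920.2, 30742, 48433 and 52953 in MET KO + EGFRi livers on the 4 days, against 25569, 16637, 21922 and 36626 in control livers. The sum was highest on day 5 in both arms, and the brightest marker, Cd5l, made up 17878 of it in MET KO + EGFRi livers and 10282 in control livers. The markers did not all follow it. Clec4f, Adgre1, Cd68 and C1qb were highest on day 2 in MET KO + EGFRi livers, and Marco was lowest on day 5 in control livers, as Hmox1 was in both arms. No listed Kupffer marker was at 0, and the part of these cells in the Hmox1 difference was not tested. The monocyte and neutrophil markers, 8 of 9 above the filter higher in mean, summed to 9382 to 10050.3 in MET KO + EGFRi livers, against 4557 to 4989 in control livers. S100a8, S100a9 and Prtn3 were called there, with log2 differences of 1.95, 1.69 and 3.15 (adjusted p = 0.00224, 0.00506 and 0.000311), and all 3 calls held without any 1 array. These 3 carried most of the difference in the sum. S100a8 had 2056 to 2468 in MET KO + EGFRi livers against 420 to 680 in control livers, and Prtn3 1033 to 1826 against 63.1 to 146. The other markers above the filter differed by -0.046 (Ccr2) to 0.42 (Ngp), none of them called. No marker of that list was at 0, though Camp stayed between 12.8 and 29.9 in MET KO + EGFRi livers and between 13.2 and 14.5 in control livers, and its part was not tested. Of the endothelial, stellate, cholangiocyte, lymphocyte and erythroid markers above the filter, 1 was called, the stellate marker Dcn (1.00, adjusted p = 0.0298). Its call held only without a day 0 array (adjusted p 0.043 to 0.242 over the 8 fits). The other 4 stellate markers above the filter had lower means in MET KO + EGFRi livers, and the median of the 5 was -0.11. Hepatocyte markers too had higher means in MET KO + EGFRi livers for 5 of 6, with a median log2 difference of 0.18 and 0 called. Hnf4a, higher on 4 of 4 days, had 0.64 (adjusted p = 0.176), and Tat had 0.50 (adjusted p = 0.318).

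**Figure D3:**
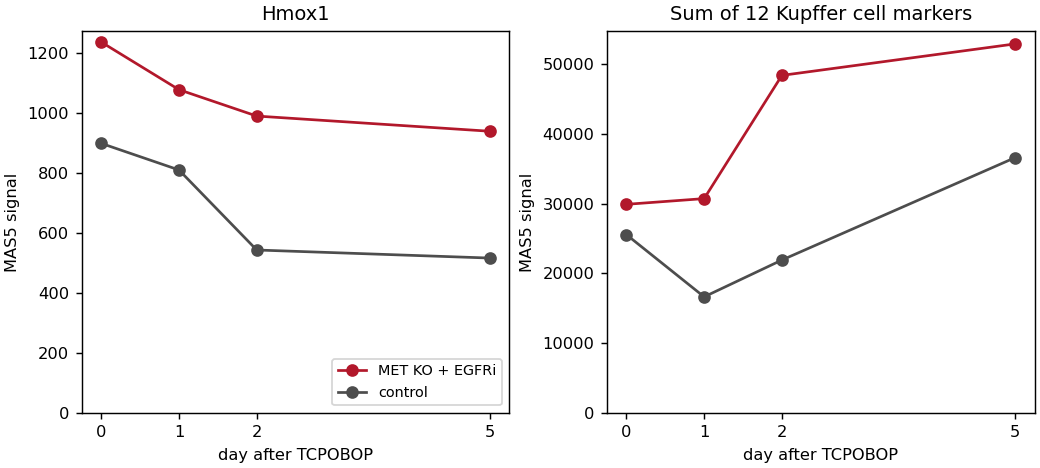
Hmox1 signal (left) and the summed signal of 12 Kupffer cell markers (right) by day after TCPOBOP, 1 pooled array per point and both axes from 0. The MET KO + EGFRi line lies above control on every day in both panels, and the marker sum, in which the bright Cd5l weighs most, ends at its highest.

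Gclc and Gclm encode the catalytic and the modifier subunit of glutamate-cysteine ligase, the enzyme of the rate-limiting step in glutathione synthesis, and they differed in pattern. Gclc had 2013, 1484, 4618 and 2812 in MET KO + EGFRi livers, against 3735, 3956, 5361 and 3497 in control livers. It was lower in MET KO + EGFRi livers on each day, most on day 1 at 0.375 times control and least on day 2 at 0.861 times. The other Gclc probe set, 1455959_s_at, had 1632, 1360.4, 3562 and 2477 in MET KO + EGFRi livers, against 4146, 4559, 9168 and 2898 in control livers, lower on each day and at 0.389 times control on day 2. The mean log2 difference was -0.69 (standard error 0.20, limma adjusted p = 0.232) on the first and -1.14 (adjusted p = 0.123 in the fit over probe sets) on the other. Of all genes, 10.3% were lower on 4 of 4 days. Both probe sets were highest on day 2 in both arms. The arms overlapped on each, since the highest MET KO + EGFRi array, that of day 2, exceeded the lowest control array, that of day 5.

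Gclm had 5398, 6850.5, 8885 and 9189.7 in MET KO + EGFRi livers, against 5663, 8246, 5841 and 7127 in control livers. The arms crossed, with MET KO + EGFRi lower on days 0 and 1 and higher on days 2 and 5, and the mean log2 difference was 0.16 (standard error 0.17, limma adjusted p = 0.774). Leaving out 1 array gave 0.010 to 0.30, lowest without a day 2 array. A weaker Gclm probe set, 1439050_at, had 1415, 1309, 1619 and 1656 in MET KO + EGFRi livers, against 1803, 1917, 1970.2 and 1451 in control livers, lower on 3 of 4 days with a mean difference of -0.24 (adjusted p = 0.624). The direction of the Gclm difference therefore depended on the probe set, and with the mean of both it was -0.040.

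Nqo1, Txnrd1 and Srxn1, which reduce quinones, thioredoxin and peroxiredoxins, were each below control on day 2 and above it on days 0 and 1 on the brightest probe set. Nqo1 had 756, 1026, 824 and 1172 in MET KO + EGFRi livers, against 472, 601, 1193 and 717 in control livers. It was 1.6, 1.71 and 1.63 times control on days 0, 1 and 5 and 0.69 times control on day 2, the day on which the control array was highest. The mean log2 difference was 0.37 (standard error 0.22, limma adjusted p = 0.555), and without a day 2 array it was 0.66. Txnrd1, the cytosolic thioredoxin reductase, had 4493, 5604, 3626 and 3465 on its brightest probe set in MET KO + EGFRi livers, against 3019.5, 3752, 3914 and 2506 in control livers. On day 2 it was 0.927 times control, and it was 1.38 to 1.49 times control on the other days, with a mean log2 difference of 0.37 (standard error 0.15, limma adjusted p = 0.39). The second Txnrd1 probe set, 1424486_a_at, had 606, 772, 706 and 384 in MET KO + EGFRi livers, against 667, 729.7, 503 and 572 in control livers, higher on 2 of 4 days. The last, 1424487_x_at, fell below the filter and had 222, 306, 146 and 114 in MET KO + EGFRi livers, against 83.9, 81.2, 42.1 and 110.5 in control livers. The control signals were near the level added to all signals. On day 5 the arms were almost level, at 1.04 times control, and no test is given for this probe set. All 3 Txnrd1 names end in _a_at or _x_at, which marks probes that bind several transcripts.

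Srxn1, sulfiredoxin, which restores over-oxidised peroxiredoxins, has 4 probe sets, and they agreed on days 0 and 2. All 4 were higher in MET KO + EGFRi livers on day 0, at 1.27 to 1.45 times control, and all 4 were lower on day 2, at 0.505 to 0.838 times control. All 4 were highest on day 2 in control livers. In MET KO + EGFRi livers 3 of the 4 were highest on day 1. The brightest had 1406, 1583, 1106 and 857 in MET KO + EGFRi livers, against 1103, 1318, 1626 and 1202 in control livers. The probe set 1426875_s_at had 744, 1327, 922 and 828 in MET KO + EGFRi livers, against 513, 1155, 1252 and 940 in control livers, with both day 0 arrays below the 6 others. Another, 1425351_at, had 479.9, 688, 500.3 and 520.2 in MET KO + EGFRi livers, against 358, 750.5, 991 and 514 in control livers, and it too had its lowest values on day 0. The weakest, 1419942_at, had 206, 221, 393 and 336 in MET KO + EGFRi livers, against 149, 118, 469 and 183 in control livers. On the mean of days, the brightest differed between the arms by -0.10 (standard error 0.18, limma adjusted p = 0.875). The change after TCPOBOP was 0.0091 on the brightest and 0.71, 0.55 and 0.44 on the others (adjusted p = 0.308, 0.51 and 0.644), so its size depended on the probe set. The interaction ranged from -0.69 to 0.029 over the 4 probe sets and was not called on any.

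Across the 16 probe sets, 5 were highest on day 2 in MET KO + EGFRi livers and 10 in control livers. Read as genes, these were 3 of 8 in MET KO + EGFRi livers and 4 of 8 in control livers, where 24.1% of all genes were highest on day 2 in MET KO + EGFRi livers and 21.8% in control livers. The 3 in MET KO + EGFRi livers were Gclc, Cbr1 and Ephx1, and the 4 in control livers were Nqo1, Gclc, Txnrd1 and Srxn1. Each highest value is 1 array, and day 2 has 1 array per arm.

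**Figure D4:**
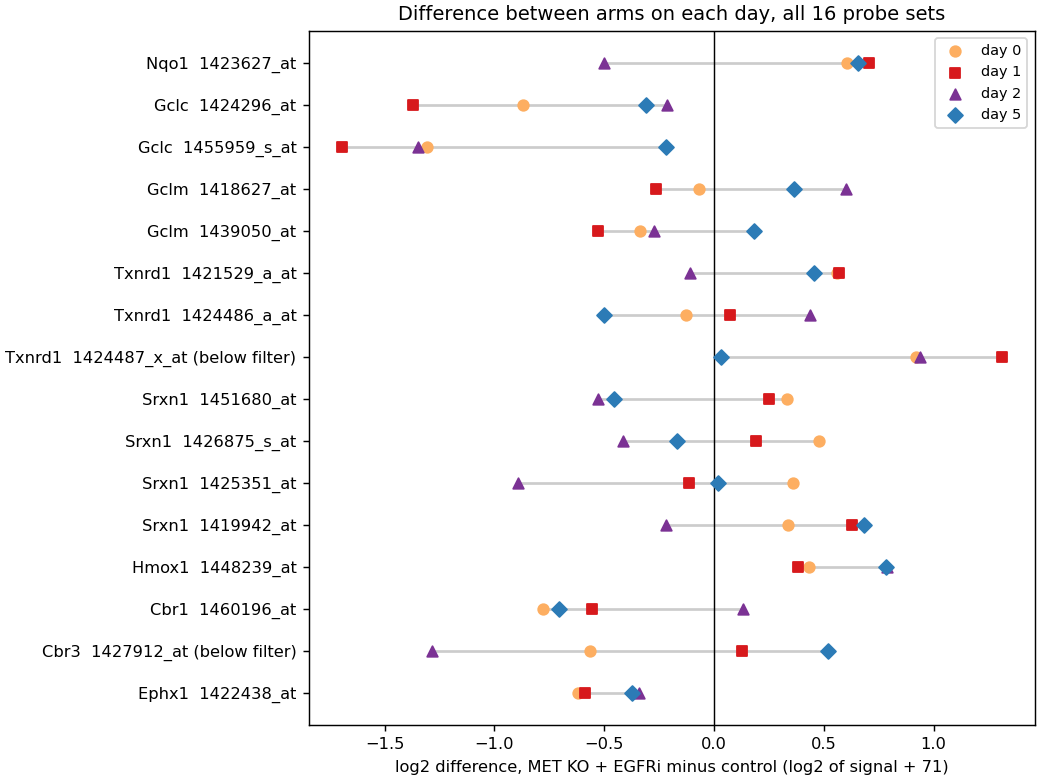
Log2 difference between the arms on each day (horizontal axis, MET KO + EGFRi minus control, signal plus 71) for the 16 probe sets (rows), 1 point per day and no replicate. The day 2 points of Nqo1 and of all 4 Srxn1 probe sets lie left of 0, and all points of Gclc and Ephx1 lie left of 0 and of Hmox1 right of it.

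The carbonyl reductases and epoxide hydrolase, which clear reactive carbonyls and epoxides, had lower means in MET KO + EGFRi livers for the pair that passed the filter. Ephx1 was 0.649, 0.664, 0.789 and 0.771 times control on days 0, 1, 2 and 5, a mean log2 difference of -0.48 (standard error 0.13, limma adjusted p = 0.203). Leaving out 1 array gave values from -0.53 to -0.43, none of them called. Cbr1 was 0.575, 0.679 and 0.611 times control on days 0, 1 and 5 and 1.1 times on day 2, with a mean log2 difference of -0.48 (standard error 0.17, limma adjusted p = 0.337). Cbr3, a relative of Cbr1 encoded on the same chromosome, 16, was the member that did not pass the filter. Its single probe set had 169, 116, 106 and 203 in MET KO + EGFRi livers, against 284, 100.1, 359 and 121 in control livers. Those values followed no order by arm or day, and no test is given.

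On single days, where 1 array stands against 1 array and no p-value can be given, a difference of at least 2-fold was rare among the 8 members on the probe set read for the gene. On day 1 Gclc was at least 2-fold lower, where 2.63% of all genes were, and no other member reached this size on any of the 4 days in either direction on that probe set. Among the remaining probe sets, Gclc 1455959_s_at was at least 2-fold lower on days 0, 1 and 2 (log2 differences -1.31, -1.69 and -1.35). Below the filter, Txnrd1 1424487_x_at was at least 2-fold higher on day 1 (1.31) and Cbr3 at least 2-fold lower on day 2 (-1.28). The shares of all genes at least 2-fold higher were 2.64%, 2.89%, 2.88% and 2.25% on days 0, 1, 2 and 5. Those at least 2-fold lower on days 0, 2 and 5 were 2.18%, 2.03% and 2.16%. Against day 0 of the same arm, Cbr1 and Ephx1 were at least 2-fold higher on all 3 later days in MET KO + EGFRi livers, and Gclc joined them on day 2. In control livers, Ephx1 was so on all 3 days, Cbr1 on days 1 and 5 and Nqo1 on day 2. For comparison, 1.6%, 2.13% and 2.82% of all genes were at least 2-fold above day 0 on these 3 days in MET KO + EGFRi livers, and 2.58%, 2.58% and 2.82% in control livers.

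The transcripts of NRF2 and its regulators did not pass either test, with 0 of 9 above the filter called between the arms or after TCPOBOP. Nfe2l2 itself had 2338, 3029.8, 3481 and 3714 in MET KO + EGFRi livers, against 3387, 2845, 4193 and 2698 in control livers, with overlapping arms (log2 difference -0.061, adjusted p = 0.93). Keap1 had 1965 to 2217 in MET KO + EGFRi livers and 1923 to 2277 in control livers (-0.0071, adjusted p = 0.991). The repressor gene Bach1 had 2577, 1545, 1456 and 1584 in MET KO + EGFRi livers, against 1402, 1353, 1418 and 953 in control livers, higher in MET KO + EGFRi livers on 4 of 4 days (0.44, adjusted p = 0.358), a pattern 9.92% of genes showed. The small Maf genes Mafg and Mafk had differences of 0.16 and 0.13, and Maff was below the filter. The transcripts say nothing about the amount of NRF2 protein, which KEAP1 sets by degradation. CAR, read on Nr1i3, had 1408, 863, 790 and 1708 in MET KO + EGFRi livers, against 3141, 2065, 1784 and 1887 in control livers, lower on 4 of 4 days (-0.89, adjusted p = 0.131), while Cyp2b10 differed between the arms by -0.082 (adjusted p = 0.849).

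Of 16 other measured detoxification genes that NRF2 is known to induce, all had a positive change after TCPOBOP, with a median of 1.08 against 0.37 for the 8 members and -0.019 for all genes. Called were 3 of the 16: the multidrug exporter Abcc4 (3.17, adjusted p = 0.00457), the glutathione transferase Gstm3 (3.06, adjusted p = 0.000509) and the exporter Abcc3 (1.53, adjusted p = 0.0179), the last named after its value was seen. Abcc4 had 124, 1384, 1190.5 and 1348 in MET KO + EGFRi livers, against 26.1, 629, 1282 and 1384 in control livers, and its day 0 signals were near the level added, so this size depends on it. Leaving out 1 array kept the call of Gstm3 in 8 of 8 fits, ended that of Abcc4 without either day 0 array, and ended that of Abcc3 without any array but those of day 2 (adjusted p 0.00294 to 0.0266 for Gstm3, 0.00901 to 0.0761 for Abcc4 and 0.0191 to 0.187 for Abcc3). Between the arms, 12 of the 16 had a lower mean in MET KO + EGFRi livers, with a median of -0.41. The transferases Gsta4 and Gsta2 differed most, by -1.84 (adjusted p = 0.0428) and -1.84 (adjusted p = 0.147), and Gsta4 was the only one called. Its call held without either day 5 array and was lost without any other (adjusted p 0.0107 to 0.269). Gsta4 had 241, 1028, 2077 and 2879 in MET KO + EGFRi livers, against 2008, 4536, 7790.1 and 4629 in control livers, lower on 4 of 4 days. UDP-glucose dehydrogenase Ugdh and aldehyde oxidase Aox1 had -0.77 (adjusted p = 0.174) and -0.50 (adjusted p = 0.255), also lower on 4 of 4 days.

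Among the enzymes that supply NADPH, 1 of 5 was called between the arms and 1 of 5 after TCPOBOP. Malic enzyme Me1 had 8188, 8062, 9009 and 7805 in MET KO + EGFRi livers, against 18613, 17723, 18420.4 and 11894 in control livers (-0.98, adjusted p = 0.0298). Every MET KO + EGFRi array was below every control array, as for 2.75% of genes. The cytosolic isocitrate dehydrogenase Idh1 rose after TCPOBOP by 0.97 (adjusted p = 0.0464). Without 1 array Idh1 was called in 0 of 8 fits (adjusted p 0.0608 to 0.365), and Me1 only without either day 5 array (adjusted p 0.0452 to 0.25). Transketolase Tkt and phosphogluconate dehydrogenase Pgd had arm differences of -0.45 (adjusted p = 0.363) and -0.32 (adjusted p = 0.363).

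In the remaining groups no gene was called in either comparison. Of 5 glutathione genes above the filter, Gpx1 differed most between the arms (0.18, adjusted p = 0.723), and glutathione reductase Gsr had the largest change after TCPOBOP (0.64, adjusted p = 0.331). Of 10 thioredoxin, peroxiredoxin, superoxide dismutase and catalase genes, the mitochondrial thioredoxin Txn2 was higher in MET KO + EGFRi livers on 4 of 4 days (0.32, adjusted p = 0.376), and Sod1 had -0.26 (adjusted p = 0.576). The 8 genes of heme and iron handling all had a positive mean difference, with a median of 0.15. Biliverdin reductase B, Blvrb, had 3734, 5023, 6932 and 4628 in MET KO + EGFRi livers, against 3177, 3406, 4559 and 3954 in control livers (0.40, adjusted p = 0.288), higher on 4 of 4 days. Alas1, the first enzyme of heme synthesis and a CAR-responsive gene, had a change after TCPOBOP of 0.72 (adjusted p = 0.373), a value that did not pass the test.

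**Figure D5:**
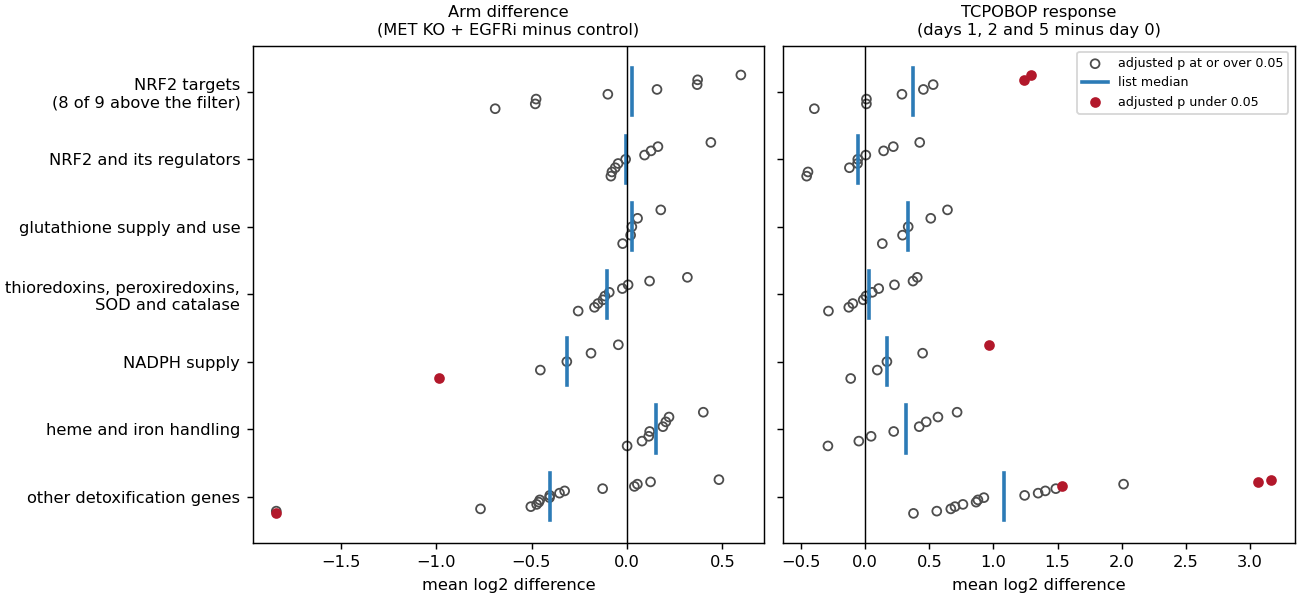
Mean log2 difference (horizontal axes) of each gene above the filter, by gene group (rows), between the arms (left) and after TCPOBOP (right). Filled points passed an adjusted p of 0.05 in limma, open points did not, and the vertical bar is the group's median. After TCPOBOP the 16 other detoxification genes all lie right of 0, while the points of NRF2 and its regulators lie on both sides.

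The genes whose signals followed each member most closely over the 8 arrays were sought among the 3028 genes whose mean reached the upper quartile of those above the filter, by Pearson's r on the log2 scale. The arrays share arms and days, so a high r only describes these 8 values. Cbr1 was followed by Fads1 (0.99), Gstt1 (0.97) and Slc6a9 (0.97), and Ephx1 by Ccl9 (0.97), Gstt1 (0.97) and Ugt2b34 (0.97), with Gstt1, a glutathione transferase, close to both. Hmox1 was followed by Slc3a2 (0.97), Errfi1 (0.96) and Cmtm6 (0.96), Gclc by H2az2 (0.98), Ybx1 (0.96) and Abcb4 (0.96) and Gclm by 1300017J02Rik (0.98), Azgp1 (0.92) and Cyp2e1 (0.92). Nqo1 was followed by Polr1d (0.95), Serbp1 (0.93) and Tmem230 (0.92), Txnrd1 by Egfr (0.94), Nat8f2 (0.93) and Gnpnat1 (0.93) and Srxn1 by Psma1 (0.91), Ikbkg (0.91) and Prpf8 (0.90). Apart from Gstt1, no gene stood among the closest 3 of more than 1 member.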

How the data were processed

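The authors deposited linear MAS5 intensity values (per the submitters' processing notes), a single signal for each probe set on each array, made from 6 µg of total RNA of pooled livers per the labels' protocols. The mean after trimming 2% at each end, averaged over the 8 arrays, was 500. The MAS5 version and detection calls are not given in the sources used here. Of 45101 probe sets, 64 are controls and were dropped, and 932 listed under several genes and 9160 not listed stayed unnamed. For testing, 71 (the lower quartile of the signals) was added before taking log2, so folds of weak genes are understated. Each gene took the values of its brightest probe set, and genes whose mean log2 value was under 8.24, the median over probe sets, were filtered out, leaving 12112 of 18193 genes and 8 of the 9 members.

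Arm and day were additive terms in limma 3.58.1 (R 4.3.3), with 3 residual degrees of freedom and variances moderated along a trend. An interaction of arm with TCPOBOP had 2 residual degrees of freedom. A call is a Benjamini-Hochberg adjusted p under 0.05 over all genes that passed the filter. Since day is a term, the residual spread is the disagreement between the arms' courses over the days. For the arm difference the 4 days thus stand in for replicates, and for the TCPOBOP response the 2 arms do. No spread between animals was measured, and single days have no test. The 9 members, the gene lists and the tests were chosen with earlier results of these data known, and the motif TGANTCAGC after the Srxn1 sequence was seen. The fits without 1 array for called genes that are no members were likewise added after seeing the data. Always named were the members, Nfe2l2, Keap1, Bach1, Nr1i3 and Cyp2b10. Each pathway list adds up to 4 genes by arm difference and 2 by TCPOBOP response, each marker list up to 3, and each member the 3 genes of most similar pattern. A few further markers are named for their level or pattern.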

Additional observations from a re-analysis of the deposited data

How the results depend on the processing

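No pairing by animal or replicate was possible because the labels carry no replicate numbers that could pair samples. Day, with 1 array of each arm, was a term in every fit but the setting without it, so the arms were compared within days. The settings tried were other pseudocounts, probe set rules, filters, normalizations and variance moderation, the arm without day, and leaving out each array. The count of members called between the arms stayed at 0 in all of these, and in the interaction at 0 in those that gave a value (without a day 0 array it cannot be estimated). Leaving out arrays gave 20 to 57 genes called between the arms and 4 to 49 after TCPOBOP, and without a filter there were 28 and 26, against 70 and 59.

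The count of members called after TCPOBOP was 2 and fell to 1, Ephx1, without a pseudocount, with the mean of probe sets, with quantile normalization and without the trend, and to 0 without a filter, where more genes are tested. Cbr1 had adjusted p of 0.0514, 0.0626, 0.0553, 0.0789 and 0.106 in these 5 settings, and Ephx1 0.0746 without a filter. Leaving out arrays gave 0 to 2 members called. The mean of probe sets left 35 and the fit without the trend 34 genes called after TCPOBOP. The median arm difference of members was -0.10 without _s_at, _x_at and _a_at probe sets (which leaves out Txnrd1) and without a filter (which adds Cbr3). At least 2-fold lower were 1 member on day 0 with the mean of probe sets and 1 on day 2 without a filter, against 0 in both.

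Among the members signs turned only for values that were not called, and the cause was not tested. With the mean of probe sets the arm difference was -0.040 for Gclm and 0.030 for Srxn1, and the TCPOBOP response of Txnrd1 was -0.079, or -0.053 after quantile normalization. Over the fits without 1 array, the arm difference of Srxn1 ran from -0.24 to 0.042, the TCPOBOP response of Srxn1 from -0.28 to 0.30 and of Txnrd1 from -0.12 to 0.14, and the interaction of Nqo1 from -0.53 to 0.074.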
